A study of Homo sapiens with 6 samples.

Results

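AP-1 is a family of dimeric transcription factors that bind DNA through a basic leucine zipper (bZIP). Jun proteins pair with each other or with Fos or ATF partners, whereas Fos proteins need a Jun partner to bind. Many of these genes are immediate early genes, switched on within minutes by serum, growth factors or stress through MAP kinases and the serum response factor SRF, without new protein synthesis. In carcinoma cells, AP-1 is known for driving genes of invasion, matrix degradation and inflammation. The 10 genes described here were chosen by symbol from the 64253 genes of each count table. They are the Jun family (JUN, JUNB, JUND), the Fos family (FOS, FOSB, FOSL1, FOSL2), the bZIP factor ATF3, the zinc finger factor EGR1, and IER3, an immediate early gene that encodes a regulator of cell survival and not a transcription factor.

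Counts came from 3 RNA libraries of CdGAP-depleted PC-3 cells (shCdGAP, with an shRNA that targets CdGAP) and 3 libraries of the same line given a control shRNA (shCon). PC-3 is an established line of androgen-independent human prostate cancer cells, and CdGAP, encoded by ARHGAP31, is a GTPase-activating protein for Rac1 and Cdc42. Both lines were made by lentiviral shRNA, and the depleted cells were grown from single cells after puromycin selection, so shCdGAP can stand for 1 clone; the methods do not say this of the control cells. A difference between a clone and its parent line and an effect of CdGAP depletion cannot be told apart in this design.

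The libraries held 33182796 to 43154039 counted reads. Reads of ARHGAP31, the targeted gene, numbered 1072, 1181 and 926 under shCdGAP against 2472, 2557 and 1923 under shCon. The groups did not overlap, and ARHGAP31 had a log2 fold change of -1.14 (adjusted p = 8.75e-08 by edgeR, standard error 0.0409). The epithelial keratins KRT8 and KRT18 were abundant in every library, whereas KLK2 and KLK3 had no reads. Of 7 markers of other cell types, 4 were tested. At an adjusted p under 0.01 by edgeR, 3 were called higher and 0 lower, where 24.1% and 22.0% of all genes tested were. The collagen genes COL1A1 and COL3A1 rose by log2 fold changes of 1.67 and 3.00, and made up most of the markers' summed level of 70.1 to 73.1 CPM (counts per 1000000 reads) in shCdGAP and 24.8 to 26.2 CPM in shCon libraries. The macrophage marker CD68 rose from 0.418 ± 0.0347 to 1.23 ± 0.116 CPM (SD, n = 3 each), and the leukocyte gene PTPRC and the fibroblast gene DCN had at most 5 reads. The endothelial marker PECAM1 had 2.37, 5.99 and 2.71 CPM in shCdGAP and 5.63, 5.45 and 5.48 CPM in shCon libraries (adjusted p = 0.181 by edgeR), and was called lower without shCdGAP replicate 2 (log2 fold change -1.14, adjusted p = 1.49e-10). CDH5, also endothelial, had 2 to 3 reads against 7 to 10 and was not tested. Their part in the results below was not tested. Replicate 2 of shCdGAP stood apart from replicates 1 and 3 (chi-square per degree of freedom 27.43 and 33.58, against 2.597 to 6.967 for the other pairs of one group), so each factor is given with and without it.

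Of the 10 genes, 9 had enough reads to be tested, and 6 of them (JUN, JUND, FOSL1, FOSL2, ATF3 and IER3) rose in shCdGAP cells at an adjusted p under 0.01 by edgeR's quasi-likelihood test. Over all 16439 genes tested, 24.1% were called higher and 22.0% lower by this rule. Among the more abundant genes (log2 CPM of 3 or more on average), these shares were 25.2% and 28.8%. None of the 9 was called lower by edgeR, and 0 were lower at an unadjusted p under 0.05 or by DESeq2. Of all 16439 genes tested, 5039 were lower at that unadjusted p and 3818 by DESeq2. At a log2 fold change above 1 as well, which 8.56% of all genes passed upwards and 4.19% downwards, ATF3 was the single member called. At an adjusted p under 0.05, which 30.9% of all genes passed upwards and 29.0% downwards, the counts of members were again 6 and 0. The median log2 fold change of the 9 genes was 0.64, against 0.01 over all genes tested. In 7 of the 9, the groups of libraries did not overlap, which held for 67.1% of all genes tested.

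**Figure D1:**
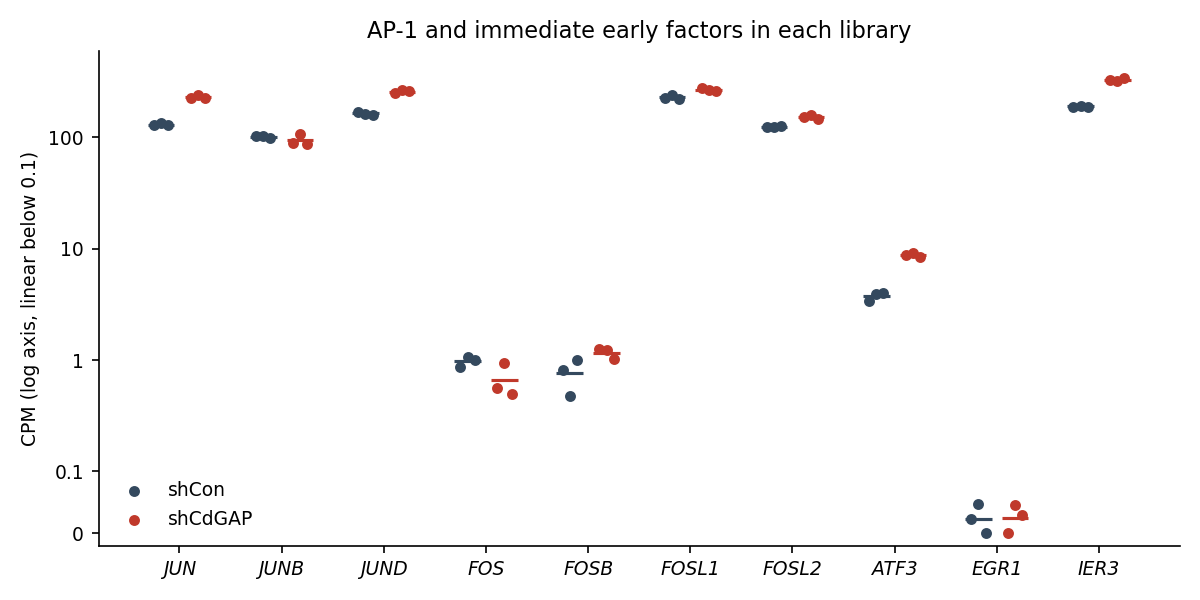
CPM of each of the 10 genes in the 3 shCon and the 3 shCdGAP libraries (points) with the group mean (line), on a log axis that is linear below 0.1 CPM. JUN, JUND, ATF3 and IER3 sit higher in all 3 shCdGAP libraries, FOS and JUNB overlap between the groups, and EGR1 lies at or below 0.0474 CPM everywhere.

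JUN encodes c-Jun, the founding AP-1 subunit and a substrate of the JNK kinases (ENSG00000177606, GRCh38 chromosome 1 from 58780788 to 58784327, minus strand). It was measured at 228, 240 and 228 CPM in shCdGAP replicates 1, 2 and 3 and at 128, 134 and 128 CPM in the corresponding shCon libraries. Every shCdGAP library lay well above every shCon library. JUN rose 1.78-fold (log2 fold change 0.83, standard error 0.0380, adjusted p = 2.97e-07), and without shCdGAP replicate 2 its log2 fold change was 0.80.

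JUND, a broadly expressed Jun protein that is less inducible than JUN (ENSG00000130522, chromosome 19 from 18279760 to 18281622, minus strand), stood at 248, 266 and 259 CPM in shCdGAP and 169, 163 and 160 CPM in shCon libraries. Its groups were again fully apart. JUND rose 1.57-fold (log2 fold change 0.65, standard error 0.0396, adjusted p = 1.69e-06), and by 0.62 without shCdGAP replicate 2.

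JUNB, a weaker activator that can oppose c-Jun (ENSG00000171223, chromosome 19 from 12791496 to 12793315, plus strand), did not follow them. It shares its position with HOOK2 on the other strand. Its values were 89.6, 107 and 87.8 CPM in shCdGAP libraries and 103, 103 and 98.2 CPM in shCon libraries. Replicate 2 of shCdGAP was the highest of all 6 libraries, while replicates 1 and 3 lay below every control. With all libraries the log2 fold change was -0.10 (95% interval -0.26 to 0.07, adjusted p = 0.280), and without that replicate JUNB was called lower (log2 fold change -0.20, adjusted p = 2.97e-07). That alternative called 30.0% of all genes tested higher and 30.0% lower.

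Divided by gene length, the Jun family changed in makeup. Levels of different genes are compared here as RPKM, CPM divided by the length of the annotated exons in kilobases. JUND was the most abundant Jun gene in both groups, at 138 ± 4.87 RPKM in shCdGAP and 88.0 ± 2.61 in shCon libraries (SD, n = 3 each). Below it, the order differed: JUNB stood above JUN in shCon libraries (55.7 ± 1.48 against 36.7 ± 0.959 RPKM), and JUN above JUNB in shCdGAP libraries (65.5 ± 2.04 against 52.1 ± 5.80 RPKM), with no overlap between these neighbours in either group. The share of JUNB in the summed RPKM of the 3 genes was 30.9% ± 0.219 in shCon and 20.3% ± 1.34 in shCdGAP libraries, and that of JUN was 20.4% ± 0.573 and 25.6% ± 0.433 (SD, n = 3). The shares of all 3 Jun genes did not overlap between the groups. That held without division by length too, but JUN then stood above JUNB in shCon libraries as well (32.9% against 25.6%). The change of order thus depends on the annotated lengths. The summed level was 176 to 184 RPKM in shCon and 247 to 270 RPKM in shCdGAP libraries.

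**Figure D2:**
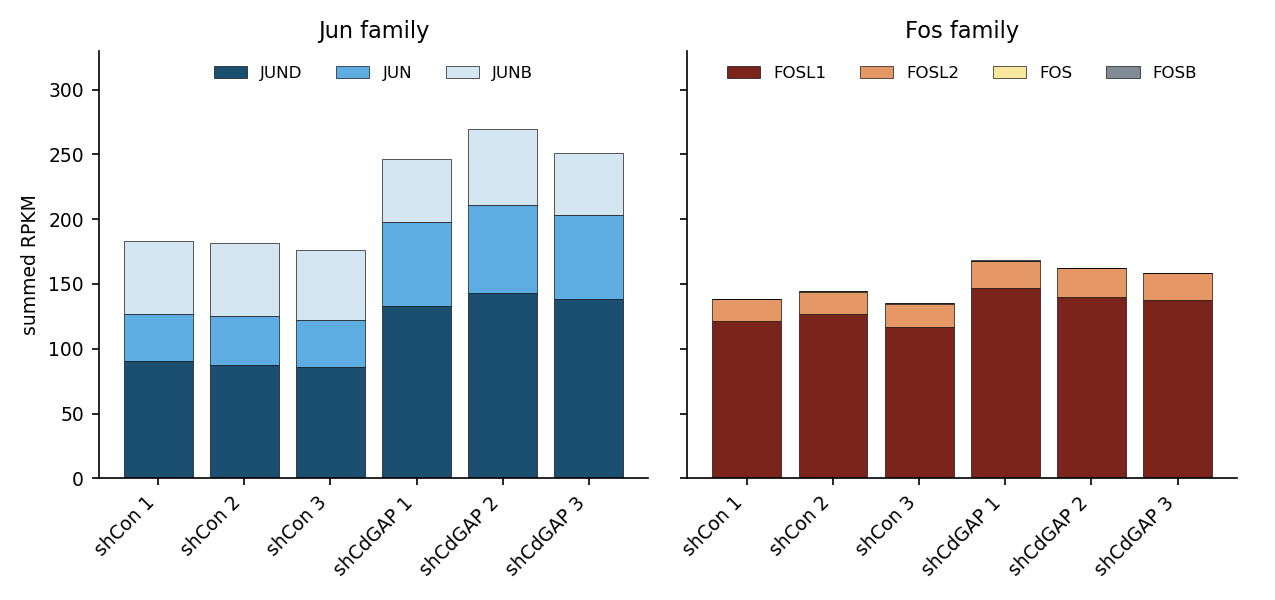
Summed RPKM of the Jun family (left) and the Fos family (right) in each library, stacked by gene. The Jun bars reach 176 to 184 in shCon and 247 to 270 in shCdGAP libraries, with a narrower JUNB segment in the latter, and FOSL1 fills most of each Fos bar.

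In the Fos family, the Fra genes held nearly all of the RNA. FOSL1, which encodes Fra-1, a Fos protein without the C-terminal activation domain of c-Fos (ENSG00000175592, chromosome 11 from 65892049 to 65900573, minus strand), was at 277, 264 and 260 CPM in shCdGAP libraries. The shCon libraries had 228, 239 and 221 CPM. The distance between the groups was small but without overlap. FOSL1 rose 1.16-fold (log2 fold change 0.22, standard error 0.0416, adjusted p = 0.00175), and by 0.22 without shCdGAP replicate 2. Leaving out shCdGAP replicate 1, shCon replicate 1 or shCon replicate 3 took it past 0.01, to adjusted p of 0.0104, 0.0168 and 0.0162 by edgeR.

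FOSL2, which encodes Fra-2, the closest relative of Fra-1 (ENSG00000075426, chromosome 2 from 28392448 to 28417312, plus strand), had 151, 158 and 146 CPM in shCdGAP and 123, 124 and 127 CPM in shCon libraries. All shCdGAP libraries were above all shCon libraries. FOSL2 rose 1.22-fold (log2 fold change 0.29, standard error 0.0398, adjusted p = 0.000268), and by 0.25 without shCdGAP replicate 2.

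FOS, the c-Fos gene that serum induces rapidly and briefly (ENSG00000170345, chromosome 14 from 75278774 to 75282230, plus strand), had few reads, 23, 41 and 17 in shCdGAP and 36, 45 and 33 in shCon libraries. These are 0.567, 0.941 and 0.495 CPM against 0.858, 1.07 and 0.999 CPM. The groups overlapped through shCdGAP replicate 2. The log2 fold change was -0.52 (95% interval -1.12 to 0.08, adjusted p = 0.118), and without that replicate FOS was called lower (log2 fold change -0.87, adjusted p = 0.00518).

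FOSB, its close paralog (ENSG00000125740, chromosome 19 from 45467995 to 45475179, plus strand), had 51, 53 and 35 reads in shCdGAP and 34, 20 and 33 in shCon libraries. On the CPM scale the groups did not overlap, although shCdGAP replicate 3 (1.02 CPM) and shCon replicate 3 (0.999 CPM) nearly met. The log2 fold change of 0.64 (95% interval 0.05 to 1.24) did not pass (adjusted p = 0.0612). Without shCdGAP replicate 2 it was 0.61, with an adjusted p of 0.0378. It depended more on the control libraries: 0.36 without shCon replicate 2 (adjusted p = 0.199 by edgeR) and 0.85 without shCon replicate 3 (adjusted p = 0.0351). FOSB lies within the span of ERCC1 on the other strand, and the counting used strand.

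FOSL1 made up 86.7% ± 0.601 of the summed RPKM of the Fos family in shCdGAP and 87.2% ± 0.614 in shCon libraries (SD, n = 3), and FOSL2 12.5% to 13.6% and 12.0% to 13.1%. Both shares overlapped between the groups. FOS and FOSB together were under 0.5% in every library. The share of FOS was 0.0963% to 0.179% in shCdGAP and 0.191% to 0.228% in shCon libraries, without overlap. It rests on 17 to 45 FOS reads per library, and in CPM the groups overlapped for FOS. The ratio of summed Jun to summed Fos RPKM was 1.47, 1.66 and 1.59 in shCdGAP and 1.32, 1.26 and 1.30 in shCon libraries.

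ATF3, a stress-induced bZIP factor that pairs with Jun proteins and can repress or activate (ENSG00000162772, chromosome 1 from 212565334 to 212620777, plus strand), had the largest change of the 9. It had 353, 397 and 288 reads in shCdGAP and 142, 167 and 132 in shCon libraries (8.73 ± 0.369 and 3.78 ± 0.342 CPM, SD, n = 3 each). The lowest shCdGAP library was still far above the highest control. ATF3 rose 2.32-fold (log2 fold change 1.21, standard error 0.0988, adjusted p = 1.00e-05), and by 1.17 without shCdGAP replicate 2. Among the 10282 genes at or above a mean log2 CPM of 3, those whose log2 CPM followed ATF3 most closely over the 6 libraries were SDC3, SCAMP5 and PCSK6 (Pearson r = 0.9987, 0.9986 and 0.9985). The 6 points are 2 groups, and 1698 of these genes had an r over 0.95.

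IER3, also called IEX-1, which modulates ERK signalling and cell survival (ENSG00000137331, chromosome 6 from 30743199 to 30744554, minus strand), was the most abundant of the 10 per length in both groups. It had 327, 319 and 341 CPM in shCdGAP and 188, 193 and 189 CPM in shCon libraries. The shCon values were tightly grouped, far below the shCdGAP values. IER3 rose 1.73-fold (log2 fold change 0.79, standard error 0.0371, adjusted p = 3.60e-07), and by 0.80 without shCdGAP replicate 2.

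**Figure D3:**
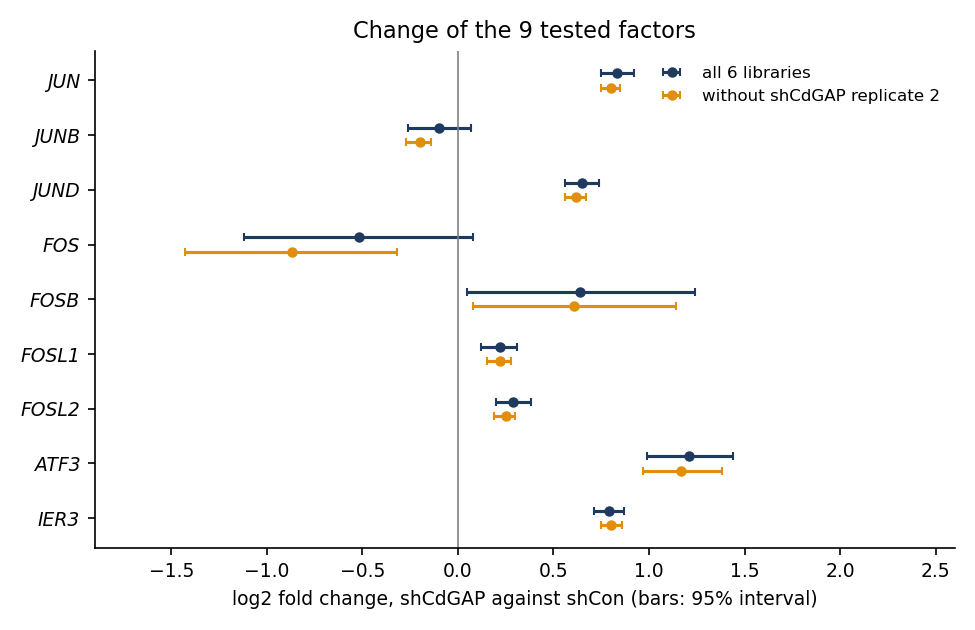
Log2 fold change of the 9 tested genes between shCdGAP and shCon, with 95% intervals, from all 6 libraries and without shCdGAP replicate 2. The 2 estimates nearly coincide for JUN, JUND, FOSL1, FOSL2, ATF3 and IER3, whereas those of FOS and JUNB move from -0.52 to -0.87 and from -0.10 to -0.20.

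In RPKM, the levels of the 10 genes differed widely. In shCdGAP libraries IER3 came first (243 ± 8.54), followed by FOSL1 (142 ± 4.63) and JUND (138 ± 4.87), whose ranges overlapped. JUN, JUNB, FOSL2 and ATF3 followed without overlap, the last at 2.16 ± 0.0912. FOSB and FOS (0.210 ± 0.0231 and 0.206 ± 0.0740) could not be told apart there. In shCon libraries, where no neighbours in the order overlapped, IER3 (140 ± 2.15) and FOSL1 (122 ± 4.85) were closest to each other in the upper part of the order (SD, n = 3 throughout).

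EGR1, a zinc finger factor strongly induced by serum through SRF (ENSG00000120738, chromosome 5 from 138465490 to 138469315, plus strand), was near the limit of detection. It had 0, 2 and 1 reads in shCdGAP and 1, 2 and 0 in shCon libraries, and it was not tested. The 3 reads of each group correspond to 0.0253 CPM (exact 95% Poisson interval 0.00522 to 0.0740) in shCdGAP and 0.0256 CPM (0.00528 to 0.0748) in shCon cells, intervals that cover counting error only. A difference between the groups was not detectable at this depth. Of the genes near EGR1, KDM3B and ETF1, chosen after their values were seen, were read abundantly. KDM3B, a histone demethylase gene 112.9 kb before EGR1, had 2797 to 4125 reads. ETF1, which encodes a translation termination factor and lies 40.6 kb after EGR1, had 7154 to 10197. Distances here are between the lowest coordinates of the genes, whatever their strand. REEP2, which lies between KDM3B and EGR1, had 16 to 28 reads in shCdGAP libraries and at most 2 in shCon libraries. CTNNA1, which encodes alpha-catenin and lies 145.5 kb after EGR1, had 25 to 63 reads, and LRRTM2, beyond it, had 0.

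**Figure D4:**
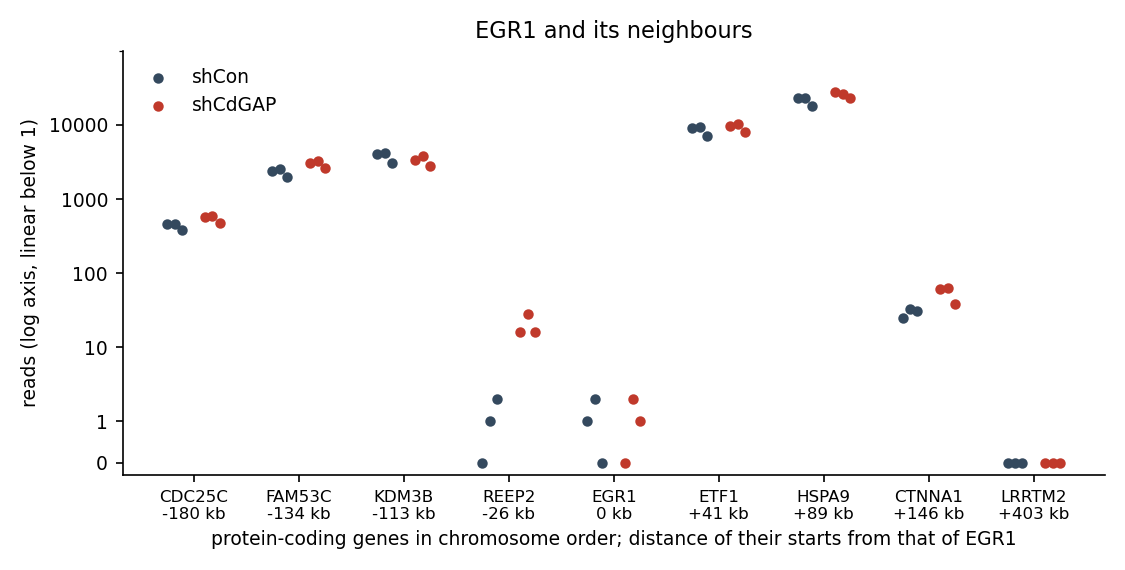
Reads of EGR1 and of the 4 protein-coding genes before and after it on chromosome 5, in each library, on a log axis that is linear below 1 read. EGR1 has 0 to 2 reads in all 6 libraries, while KDM3B before it has 2797 to 4125 and ETF1 after it 7154 to 10197. REEP2, directly before EGR1, has 0 to 28 reads, CTNNA1 25 to 63 and LRRTM2 0. Distances are between the lowest coordinates of the genes, whatever their strand.

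The promoters of 8 members were present in the RefSeq-based table (GRCh38.p14, 250 bases before to 50 after the transcript start) and were searched for 3 motifs that read the same on both strands: the AP-1 site TGANTCA, the cyclic AMP response element TGACGTCA, and the CArG box bound by SRF. The motifs do not overlap in the windows shown. Matches were found in FOSL2, JUND and EGR1 and are shown in capitals, so that the promoters of risen members can be set beside the one that was nearly unread. FOS, FOSB, JUN, JUNB and ATF3 held none of these letters in the window, and FOSL1 and IER3 had no entry. The search could not find sites outside the window or variants of these letters, so an empty window does not show that a gene lacks such sites. Of all 35116 promoters in the table, 7.71% held TGANTCA, 1.85% held TGACGTCA and 1.29% held a CArG box. The FOSL2 match begins at base 5 after the start, the JUND match at -200, and the EGR1 matches at -105 and -83. The stretches of 250 bases are chr2:28392619-28392868 (plus strand), chr19:18281623-18281872 (minus strand) and chr5:138465229-138465478 (plus strand). The RefSeq start used for FOSL2 lies downstream of the start of the gene as counted, at 28392448, so its stretch lies within the counted gene.
FOSL2: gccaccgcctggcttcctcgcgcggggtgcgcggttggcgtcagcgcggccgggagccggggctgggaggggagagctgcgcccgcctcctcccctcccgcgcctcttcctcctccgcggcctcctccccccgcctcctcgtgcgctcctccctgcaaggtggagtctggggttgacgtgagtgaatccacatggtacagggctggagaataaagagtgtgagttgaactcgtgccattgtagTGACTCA
JUND: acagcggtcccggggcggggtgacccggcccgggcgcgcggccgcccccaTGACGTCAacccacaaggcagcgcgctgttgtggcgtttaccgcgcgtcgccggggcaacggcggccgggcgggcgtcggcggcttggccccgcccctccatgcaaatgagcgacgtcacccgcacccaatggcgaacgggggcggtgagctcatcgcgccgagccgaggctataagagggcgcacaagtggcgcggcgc
EGR1: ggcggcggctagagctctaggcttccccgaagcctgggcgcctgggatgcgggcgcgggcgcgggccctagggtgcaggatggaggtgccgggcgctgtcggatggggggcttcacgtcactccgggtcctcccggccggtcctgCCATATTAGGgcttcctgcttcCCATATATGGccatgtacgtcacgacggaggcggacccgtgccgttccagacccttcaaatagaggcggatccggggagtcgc

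The position of the members on the chromosomes was compared with their neighbours. The 40 tested genes nearest to each of the 9 tested members had median log2 fold changes from -0.07 (around JUNB) to 0.24 (around JUN). The rises of JUN, JUND, ATF3 and IER3, at 0.65 to 1.21, were larger than the median of their neighbours in each case. These members had already been called higher, which made that outcome likely. The highest neighbour rose more than the member in each case, by 2.49 around JUN, 3.52 around JUND, 3.64 around ATF3 and 2.04 around IER3. FOSL1 at 0.22 and FOSL2 at 0.29 stood closer to the medians of their neighbours, at 0.09 and 0.13.

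The same libraries were read for other genes of the pathway, in lists that were written with earlier results of these data known. Other bZIP genes that can pair with Jun or Fos proteins or share their sites were 16 in number, of which 12 were tested and 6 rose, where 24.1% of all genes tested did (median log2 fold change 0.26). None was called lower by edgeR, 1 was lower at an unadjusted p under 0.05 and 1 by DESeq2. Of all 16439 genes tested, 22.0% were called lower by edgeR, 5039 genes were lower at that unadjusted p and 3818 by DESeq2. DDIT3, the stress factor CHOP, rose from 6.85 ± 0.238 to 12.5 ± 0.729 CPM (SD, n = 3 each). BATF3 had a log2 fold change of 0.74, CREB5 of 0.55 and MAFK, a small Maf protein, of 0.27. When certain single libraries were left out, BATF3 did not pass 0.01 (adjusted p up to 0.0239 by edgeR). JDP2, a repressor that dimerizes with Jun, is named after its values were seen: it had 15, 16 and 23 reads in shCdGAP and 0, 0 and 1 in shCon libraries, at least 6.03-fold higher when shCon is set to 3 reads per library.

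Of 34 other immediate early genes tested, 10 were called higher and 9 lower (median log2 fold change -0.02). These shares, 29.4% and 26.5%, were near the 24.1% and 22.0% of all genes tested, so the counts single out nothing about the list. EGR2, the relative of EGR1 that was read, had 226, 362 and 162 reads in shCdGAP and 50, 44 and 33 in shCon libraries. It rose from 1.08 ± 0.101 to 6.20 ± 1.88 CPM (log2 fold change 2.52, adjusted p = 2.68e-05), and by 2.24 without shCdGAP replicate 2. EGR3 and EGR4 had at most 1 read in any library. NR4A1, an orphan nuclear receptor, rose by a log2 fold change of 1.63, and KLF6, a zinc finger factor, by 1.41. IER5L fell by 2.05 on the log2 scale, on a part of chromosome 9 where the 40 nearest tested genes had a median of -0.60. IER5 fell by 0.58 and IER2 from 239 ± 2.85 to 178 ± 11.3 CPM (SD, n = 3 each). Without shCdGAP replicate 2, 12 genes of the list were called higher and 15 lower, where 30.0% of all genes were called in each direction.

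Among 36 kinases, SRF and ELK factors and cofactors that act on these genes, 2 rose and 13 fell, with a median log2 fold change of -0.09. These shares, 5.56% and 36.1%, stand beside 24.1% and 22.0% of all genes tested and 25.2% and 28.8% of the more abundant genes. MAP2K3, a p38 kinase kinase, fell by 0.76 and RPS6KA3, the ERK-activated kinase RSK2, by 0.62. The genes called higher were MAPK11, the p38 beta kinase, at 0.61, and ELK3, a partner of SRF, at 0.16. ELK3 did not pass 0.01 when certain single libraries were left out (adjusted p up to 0.0543 by edgeR), and without shCdGAP replicate 2 the list had 5 genes called higher and 17 lower, against 30.0% of all genes in each direction. SRF itself, which is in both this list and the one before, had a log2 fold change of -0.37.

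Of 41 genes known as AP-1 targets, 36 were tested, of which 23 rose and 4 fell (63.9% and 11.1%, against 24.1% and 22.0% of all genes tested), with a median log2 fold change of 0.69. MMP13, a collagenase with a classical AP-1 site, rose from 2.62 ± 0.426 to 144 ± 31.7 CPM, the chemokine CCL2 from 20.4 ± 0.792 to 502 ± 110 CPM, and MMP1, the interstitial collagenase, from 1.83 ± 0.0410 to 17.3 ± 1.54 CPM (SD, n = 3 each). The lowest fold changes among those past the test were in AXL, a receptor tyrosine kinase, at a log2 fold change of -1.03, DKK1, a WNT antagonist, at -0.80, and EPHA2, an ephrin receptor, at -0.55. The list was compiled from targets known in other cells, and several of its genes already stood out in earlier results of these data.

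**Figure D5:**
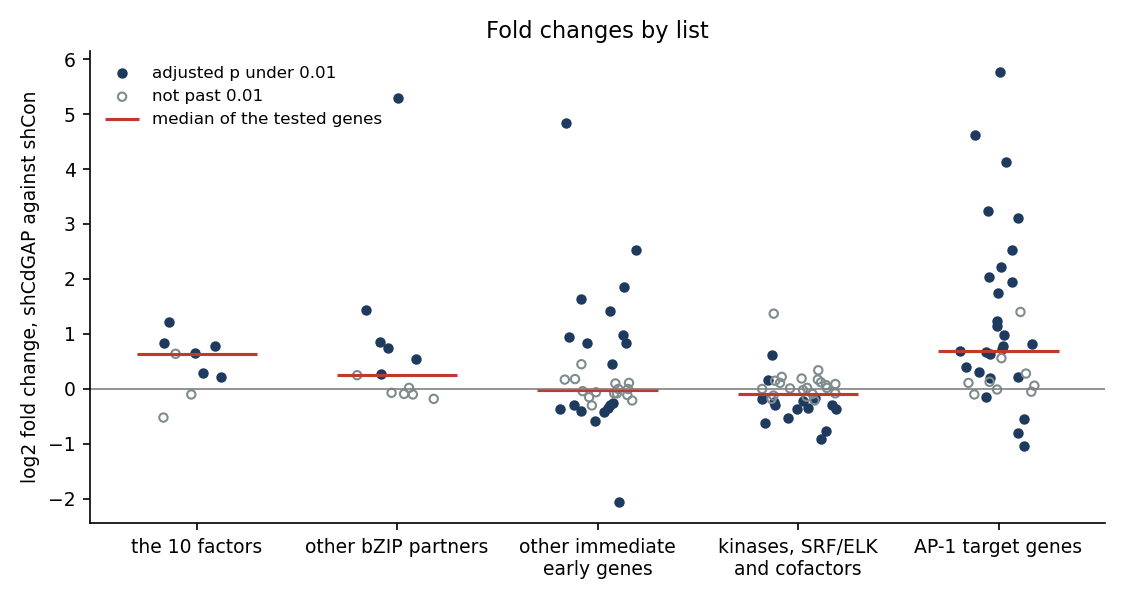
Log2 fold change of each tested gene by list, filled where the adjusted p is under 0.01 by edgeR, with the median of the list (red line). The points lie mostly above 0 for AP-1 target genes (median 0.69) and about 0 for other immediate early genes (median -0.02); the highest point among bZIP partners (JDP2) and among immediate early genes (ARC) have shCon libraries with at most 1 read.

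Heat shock genes, which also respond to handling of cells, were read as a check. Of 8, 2 rose (25.0%, against 24.1% of all genes tested), HSPB1 by a log2 fold change of 0.53 and DNAJB1 by 0.16. Without shCdGAP replicate 2, 3 were called higher and 2 lower, where 30.0% of all genes were called in each direction. The summed level of the 8 genes was 3419 to 3636 CPM in shCdGAP and 3372 to 3504 CPM in shCon libraries. Their part in the results was not tested. Within the groups, shCdGAP replicate 2 had the highest CPM for 6 of the 9 tested members and replicate 3 the lowest for 6.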

How the data were processed

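Total RNA of 3 shCdGAP and 3 shCon samples, described as independent in the study's methods, was sequenced. The authors deposited raw counts per Ensembl gene. Per the file headers, these were made with featureCounts 1.6.0, strand-specific and for read pairs, on Ensembl release 77 (GRCh38), after alignment with STAR 2.5.1b. The methods name featureCounts 1.4.6 and a single-read kit. Reads with several alignments were not counted. Nothing beyond the methods says that samples came from separate cultures, so p-values measure the spread between these samples. Symbols were matched for 56105 of 64253 genes.

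Counts were tested with edgeR 4.0.16 in R 4.3.3. Low genes were dropped by filterByExpr, libraries scaled by TMM, and p-values from the robust quasi-likelihood fit adjusted by Benjamini-Hochberg over 16439 genes. Calls used an adjusted p under 0.01. CPM and RPKM used TMM-adjusted library sizes. A standard error is the size of the log2 fold change over the root of its F statistic. An exact permutation of 3 against 3 cannot give a p under 0.1, so none was used. DESeq2 1.42.0, other scalings and filters, the replicate block and single libraries left out were alternatives. The edgeR fit was tested on simulated counts, in which far fewer genes changed than were called here. The members and lists were chosen with earlier results of these data known. Named genes are the members, ARHGAP31, markers, and, per list, the 3 genes with the highest and the 3 with the lowest fold change, out of those past 0.01 whose mean log2 CPM was 1 or more. The genes most like the member with the largest change were also named. Protein sequences were not used here. Same-numbered samples correlated only weakly in their deviations from the group means, and the main test has no replicate block. Some genes that the naming rule selects are not reported here.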

Additional observations from a re-analysis of the deposited data

How the results depend on the processing

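Depth limits FOS, FOSB and above all EGR1, and groups of 3 are too small for outlier tests. Of 126 fold changes of the 9 tested members under 14 alternatives, none changed direction and 121 stayed on their side of 0.01; the other 5 came from leaving out single libraries. The leave-one-out log2 fold changes ran from -0.87 to -0.37 for FOS and from 0.36 to 0.85 for FOSB. They ran from 0.18 to 0.23 for FOSL1 and from -0.20 to -0.05 for JUNB. Counts of called genes under leave-one-out were 5 to 6 members higher and 0 to 2 lower, 0 to 2 bZIP partners lower, 6 to 15 other immediate early genes lower, and 1 to 5 kinases and cofactors higher. Over all genes tested, these counts ran from 2953 to 5013 higher and from 2834 to 5022 lower. One bZIP partner was called lower (1 gene) by DESeq2, with TMM without chromosomes 9 and 13, without a filter and at an adjusted p under 0.05. In these settings, in this order, 3854, 3855, 4111 and 4762 of all genes were called lower. Kinases and cofactors called higher were 1 by DESeq2, 1 with TMM without chromosomes 9 and 13, 5 without a filter and 7 at an adjusted p under 0.05. Of all genes, 3857, 3778, 4800 and 5081 were called higher in these settings. With an absolute log2 fold change above 1 as well, the genes called higher and lower were 1 and 0 of the members, 2 and 0 bZIP partners, 5 and 1 immediate early genes, 0 and 0 kinases and cofactors, 12 and 1 AP-1 targets, and 1407 and 689 of all genes. Fewer genes pass by construction there, and the cause of the other shifts was not tested.

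Same-numbered samples correlated only weakly in their deviations from the group means over 16439 genes, at 0.0306, 0.0499 and 0.0469. Differently numbered samples correlated at -0.0741 to 0.0275, and each sample correlated best with its own number. The sample labels do not say whether the numbers pair the samples. With the replicate number as a block, 3808 genes were called higher and 3421 lower, against 3963 and 3624 without it. Under the block 1 bZIP partner was called lower and 1 kinase or cofactor higher, and no call of a member changed.

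Without division by length, the shares of the Fos family in shCdGAP and shCon were 63.5% and 64.5% for FOSL1, 36.1% and 35.0% for FOSL2 and 0.276% and 0.215% for FOSB, and 0.274% for FOS in shCon. Those of the Jun family were 39.7% and 32.9% for JUN, 16.2% and 25.6% for JUNB and 44.1% and 41.5% for JUND. JUN then stood above JUNB in both groups, since its annotated length is greater.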
